A study of Mus musculus with 5 samples.

Results

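The regions described here are transcription start sites (TSSs) that lie so close to another TSS that their analysis windows overlap. They came from an ATAC-seq study of mouse pre-B cell leukaemia cells (strain C57BL/6J), transformed by overexpressed BCR-ABL1, an oncogenic tyrosine kinase fusion, and null for p19, as the labels name it; both alterations were shared by all 5 libraries. The comparison was of 2 libraries with wild-type PHF6 (WT replicates 1 and 3) with 3 libraries null for PHF6 (KO replicates 1, 2 and 3). The PHF6 protein, found in the nucleus and nucleolus, carries PHD-type zinc fingers. ATAC-seq uses the Tn5 transposase to tag accessible DNA, and NucleoATAC, the program in the names of the deposited files, estimates nucleosome signal from the lengths and positions of the fragments. The replicates are called biological, but no source says that they came from separate animals, clones or cultures, so a p-value reflects only how far these libraries scatter, which may be technical. No source used here says how PHF6 was removed.

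For each library the authors deposited a matrix of 37310 rows by 200 columns in which a row is a TSS and a column a bin of 10 bp, so that a window spans 2000 bp. Windows of 2 nearby TSSs hold the same bins of the genome, shifted by the distance between the TSSs. Members were the rows that shared with another row 2 or more consecutive bins of identical value in WT replicate 1 and identical value in WT replicate 3, all above a deposited signal of 0.01, after rows repeating another row in all 5 libraries (45) and rows with no signal in any library (818) were left out. By this rule 789 of 36447 distinct windows were members (2.16%), joined in 405 pairs at 389 loci. Pairs were found only where the 2 TSSs lay a whole multiple of 10 bp apart, because otherwise their bins do not coincide, so TSSs with neighbours at other distances remain among the other windows. The rows carry no gene name, coordinate or strand. A pair is therefore named by its 2 row numbers, no gene could be named, no sequence could be matched to a window, and the Phf6 locus could not be used to check the labels.

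Promoters in active genes are typically depleted of nucleosomes over the TSS and flanked by well-placed nucleosomes on both sides. Neighbouring TSSs arise in several ways: alternative start sites of 1 gene, divergent promoters that fire in opposite directions from a shared depleted region, or genes that lie head to tail. A stretch of DNA shorter than the length wrapped around a nucleosome cannot hold a whole nucleosome, whereas a longer stretch between TSSs can hold 1 or several. The distance between 2 TSSs thus limits how many whole nucleosomes may lie between them, and the pairs are ordered by that distance here. Because orientation is not given, the members cannot be divided among the kinds listed.

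The pairing held in data that the rule did not use. All 405 pairs were identical over their whole overlap, 58369 bins in total, in each of KO replicates 1, 2 and 3 as well as in the WT libraries. The overlap held signal in 401, 400 and 382 of the 405 pairs in KO replicates 1, 2 and 3. A search of all distinct windows for such runs in reversed column order found 0 pairs, against 405 in the same order. A count of 0 allows up to 3 (0.741% of 405, counting error only). Left and right below are therefore fixed directions and not upstream and downstream. The 2 rows of a pair lay a median of 10205 rows apart in the files and 2 or fewer rows apart in 36 pairs, so neighbours stood side by side in the files for a small share of the pairs. At the edge of the rule, the 3 pairs with exactly 2 qualifying bins had TSSs 1150, 1420 and 1600 bp apart; in the last of these the qualifying bins held 0.0160 and 0.111 in WT replicate 1. Just outside, 11 further pairs shared qualifying bins singly and never 2 in a row, such as rows 2995 and 16476 at 1100 bp, whose single bin held 0.0154 in WT replicate 1 and 0.0168 in WT replicate 3.

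The median distance between paired TSSs was 400 bp, with quartiles at 150 and 860 bp and a range of 10 to 1910 bp. Pairs were most frequent within 200 bp: 66 lay 10 to 100 bp apart and 75 lay 110 to 200 bp apart, against 36 at 210 to 300 bp and 20 at 510 to 600 bp. A longer distance leaves a shorter overlap in which shared signal can be seen, so the lower number at long distance is in part set by the rule. The pairs are divided into 4 distance classes: 108 pairs at 10 to 150 bp, 131 at 160 to 500 bp, 85 at 510 to 1000 bp and 81 at more than 1000 bp.

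**Figure D1:**
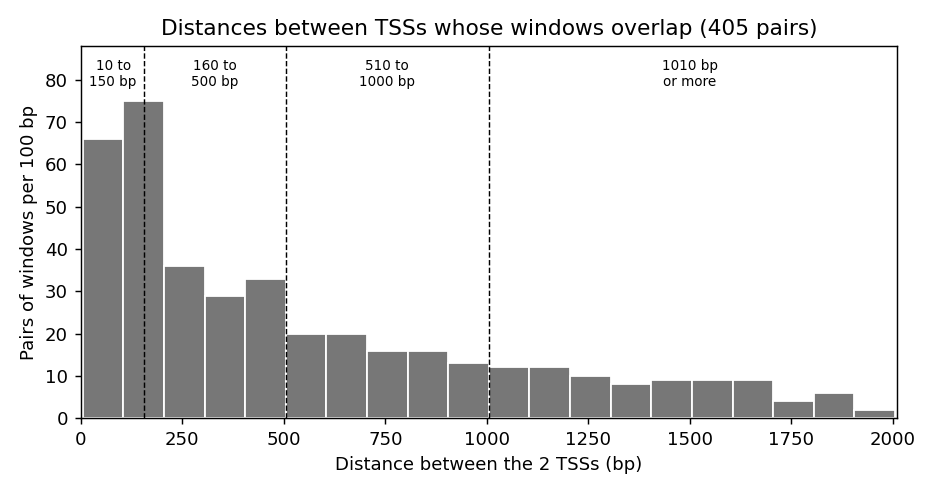
Number of pairs (vertical axis) by distance between the 2 TSSs in bp (horizontal axis), in steps of 100 bp; dashed lines divide the 4 distance classes. The first 2 bars hold 66 and 75 pairs and the third 36.

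Of the 389 loci, 379 held 2 windows, 9 held 3 and 1 held 4. The largest group joined rows 19232, 19230, 20540 and 24217, with TSSs at 0, 370, 1130 and 1850 bp. It was a weak locus: over the first 2 of its windows, the relative signal (deposited signal divided by the library's mean over all distinct windows and bins) was 0.969 and 0.538 in WT replicates 1 and 3 and 0.274, 0.506 and 0.689 in KO replicates 1, 2 and 3. The groups overlapped there, and all 5 libraries lay below the average window at 1. Another 3 of the linked groups had all 9 of their windows among rows 23119 to 23133. One of them had TSSs at 0, 800 and 1610 bp, and the other 2 at 0, 1220 and 1690 bp and at 0, 1060 and 1290 bp.

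Because neighbours share bins, members are not independent measurements. The 789 windows contained 157800 bins, of which 99880 (63.3%) were distinct. In pairs 10 to 150 bp apart the windows shared a median of 95.5% of their bins, and the WT to KO difference of the whole window had the same sign at both TSSs in 99 of 108 pairs. In pairs more than 1000 bp apart they shared a median of 30% and had the same sign in 50 of 81. Counts of windows that differ between genotypes therefore count many close loci more than once. Below, values over whole loci count shared bins once, whereas values of member windows count them in each window.

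Member windows carried more signal than the other 35658 windows, which the rule favours by asking for signal. Their mean relative signal was 1.54 and 1.48 in the WT libraries and 1.56, 1.60 and 1.67 in KO replicates 1, 2 and 3, and that of the other windows was 0.985 to 0.989 in the 5 libraries. By relative signal with equal weight on the genotypes, 405 of the 789 member windows (51.3%) belonged to the top 25% of all distinct windows and 78 to the lowest 25%. The share in the top 25% was 75.9%, 52.3%, 40% and 22.2% from the closest to the farthest class. Bins at exactly 0 made up 35% and 33.7% of member windows in WT replicates 1 and 3, and 34.1%, 41.2% and 51.4% in KO replicates 1, 2 and 3. The mean deposited signal was also lowest in KO replicate 3 (0.323 over all distinct windows, against 0.545 to 0.614 in the other 4). The part of these library differences in the comparisons below was not tested, apart from the values given with them.

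At pairs 10 to 150 bp apart, the stretch between the TSSs held less mean signal than the outer flanks in all 5 libraries, and less in every KO library than in either WT library. The mean relative signal between the TSSs was 2.34 and 2.63 in WT replicates 1 and 3, and 1.34, 1.31 and 1.50 in KO replicates 1, 2 and 3. At the outer flanks, 50 to 200 bp outside the pair, it was 4.69 and 3.88 in WT and 4.91, 5.73 and 5.27 in KO. The means of the genotypes thus did not overlap in either place, with KO lower inside and higher outside. Single pairs varied: 31 and 35 of 108 held more signal between the TSSs than at the outer flanks in WT, and 16, 16 and 13 in KO. As group values, the signal between the TSSs was 2.49 ± 0.203 (SD, n = 2) in WT and 1.38 ± 0.105 (SD, n = 3) in KO.

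The ratio of outer flanks to the stretch between needs no scaling between libraries. In these close pairs it was 2.00 and 1.48 in WT replicates 1 and 3 and 3.65, 4.38 and 3.50 in KO replicates 1, 2 and 3. The log2 ratio differed by 1.16 between genotypes, with all 3 KO libraries above both WT libraries (exact two-sided permutation p = 0.1, the smallest that 2 against 3 libraries allow; Benjamini-Hochberg adjusted p = 0.21 over 21 comparisons). No single-value comparison in this design could therefore pass 0.05. As deposited, without scaling, the signal between was 1.28 and 1.45 in WT and 0.824, 0.748 and 0.486 in KO, still without overlap, whereas the deposited outer flanks overlapped (2.56 and 2.14 against 3.01, 3.28 and 1.70).

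Bins at 0 between the TSSs moved with this difference. They made up 28.8% and 26.8% in WT replicates 1 and 3 and 39.7%, 53.4% and 52.0% in KO replicates 1, 2 and 3. Over all distinct windows the share of bins at 0 was 47.0% and 44.5% in WT and 45.2%, 52.8% and 65.4% in KO, and its part in the difference was not tested. Pairs with no signal at all between the TSSs numbered 14 and 18 of 108 in WT and 25, 36 and 35 in KO. The median over pairs of the signal between the TSSs was 0.615 and 0.874 in WT and 0.118, 0.0189 and 0.0365 in KO, again without overlap. The median at the outer flanks, taken separately, overlapped, with 4.40 and 3.08 in WT and 4.35, 4.88 and 4.58 in KO.

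The difference at close pairs was compared with that at the TSS of all other windows, whose flank to trough ratio (flanks at 50 to 200 bp on both sides, trough within 50 bp of the TSS) was 1.60 and 1.41 in WT and 1.88, 2.31 and 2.00 in KO. After subtraction of the log2 of each library's ratio for the other windows, the log2 ratio of the close pairs was 0.32 and 0.07 in WT and 0.96, 0.93 and 0.81 in KO, a difference of 0.70 (exact permutation p = 0.1; adjusted p = 0.21). Since most close pairs are of high signal, the 8707 other windows of the top 25% were used in the same way, a comparison added after the values were seen. The remainder was then -0.01 and -0.20 in WT and 0.54, 0.46 and 0.47 in KO, a difference of 0.60 (exact permutation p = 0.1; adjusted p = 0.21). In both comparisons the 3 KO libraries lay above both WT libraries. The stretch between 2 TSSs and the trough around 1 TSS are not the same region, which limits the comparison. A like measure takes flanks and trough around each member TSS. In the closest class it was 1.95 and 1.46 in WT and 3.01, 3.06 and 2.57 in KO. It exceeded that of all other windows in each library. The other windows of the top 25% had 2.02 and 1.69 in WT and 2.51, 3.18 and 2.53 in KO. Against these, members were higher in KO replicates 1 and 3 and lower in KO replicate 2 and both WT libraries. The 0.70 and 0.60 thus concern the stretch between, and the like measure was not tested.

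At pairs 160 to 500 bp apart, the stretch between the TSSs held a mean signal above the average of all windows in both genotypes. Its mean relative signal was 2.73 and 2.40 in WT replicates 1 and 3 and 2.37, 2.35 and 2.44 in KO replicates 1, 2 and 3, with overlap between genotypes. The median over pairs of the signal between was 1.52 and 1.42 in WT and 1.35, 0.904 and 1.36 in KO, without overlap. Pairs with no signal there numbered 10 and 5 of 131 in WT and 8, 23 and 27 in KO, with overlap. The outer flanks held a mean of 2.67 and 2.25 in WT and 2.81, 3.39 and 3.38 in KO. The log2 ratio of outer flanks to the stretch between was -0.03 and -0.10 in WT and 0.25, 0.53 and 0.47 in KO, a difference of 0.48 (exact permutation p = 0.1; adjusted p = 0.21). Relative to the flank to trough ratio of the other windows the libraries overlapped, and the difference was 0.03 (exact permutation p = 0.7; adjusted p = 0.735); relative to the top 25% it was -0.08 (exact permutation p = 0.5; adjusted p = 0.553). This ratio of means gives weight to loci of strong signal. The median over pairs of the log2 ratio with a pseudocount of 0.1 was 0.07 in WT and 0.05 in KO, a difference of -0.03 in the opposite direction.

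At pairs 510 to 1000 bp apart, the signal between the TSSs was 1.67 and 1.70 in WT and 1.77, 1.83 and 1.96 in KO, and at the outer flanks 1.71 and 1.40 against 1.96, 1.83 and 2.11. KO was higher in both places without overlap on this scale, whereas the deposited values overlapped in both, and between the TSSs their means were 0.924 in WT and 0.921 in KO. The median over pairs had the opposite order between the TSSs, with 0.987 and 1.14 in WT and 0.881, 0.838 and 0.861 in KO. The median at the outer flanks, taken separately, overlapped (0.966 and 0.775 in WT, 0.918, 0.449 and 0.890 in KO). The higher KO means therefore did not hold for the medians. The log2 ratio overlapped between the groups (0.03 and -0.28 in WT, 0.15, 0.00051 and 0.11 in KO; difference 0.21, exact permutation p = 0.3, adjusted p = 0.35). The difference was 0.0591 without WT replicate 3 and 0.366 without WT replicate 1. The 5 loci of highest signal in this class held 24.2% of the signal at its outer flanks; without the 5 the difference was 0.37 and the libraries did not overlap. Relative to all other windows the difference in this class was -0.24 (exact permutation p = 0.3; adjusted p = 0.35), and relative to those of the top 25% -0.35 (exact permutation p = 0.2; adjusted p = 0.28).

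At pairs more than 1000 bp apart, the stretch between the TSSs held less signal than in the closer classes. It had 1.12 and 1.11 in WT and 1.10, 1.06 and 1.06 in KO, close to the average of all windows. The median over pairs of the signal between was 0.851 and 0.959 in WT and 0.790, 0.802 and 0.706 in KO, without overlap. The bins shared by such a pair all lie between its TSSs. The rule thus asked for signal there in the WT libraries and not in KO. The part of this choice in the differences of this class was not tested, apart from the value below with pairs found in KO. The outer flanks held a mean of 1.80 and 1.74 in WT and 1.59, 1.54 and 1.69 in KO. The log2 ratio was 0.66 ± 0.026 (SD, n = 2) in WT and 0.58 ± 0.0750 (SD, n = 3) in KO, which overlapped (exact permutation p = 0.3; adjusted p = 0.35). Its direction turned when the 5 loci of highest signal were left out (difference 0.05 in place of -0.08). With pairs found instead in KO replicates 1 and 2, the difference was -0.109 (exact permutation p = 0.3). Within 50 bp of either TSS these pairs had 0.909 and 0.995 in WT and 0.682, 0.587 and 0.601 in KO, and each KO library was lower there than both WT libraries. Relative to the flank to trough ratio of the other windows, the log2 ratio was 0.00159 and 0.15 in WT and -0.38, -0.66 and -0.33 in KO, a difference of -0.53 (exact permutation p = 0.1; adjusted p = 0.21). Against the other windows of the top 25% it was -0.64 (exact permutation p = 0.1; adjusted p = 0.21). The trough at a single TSS, measured in the average member window as in the other windows, gave another order: its flank to trough ratio was 1.69 and 1.51 in WT and 2.17, 2.59 and 2.53 in KO. This like measure was higher in each KO library, as it was in the closest class (1.95 and 1.46 in WT, 3.01, 3.06 and 2.57 in KO) and in the other windows. At 510 to 1000 bp each KO library was also above both WT libraries, with means of 1.27 in WT and 1.89 in KO. At 160 to 500 bp, however, the genotypes overlapped, with 2.06 and 1.64 in WT and 2.01, 2.47 and 1.98 in KO. The higher KO value of this like measure thus did not hold in every class.

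**Figure D2:**
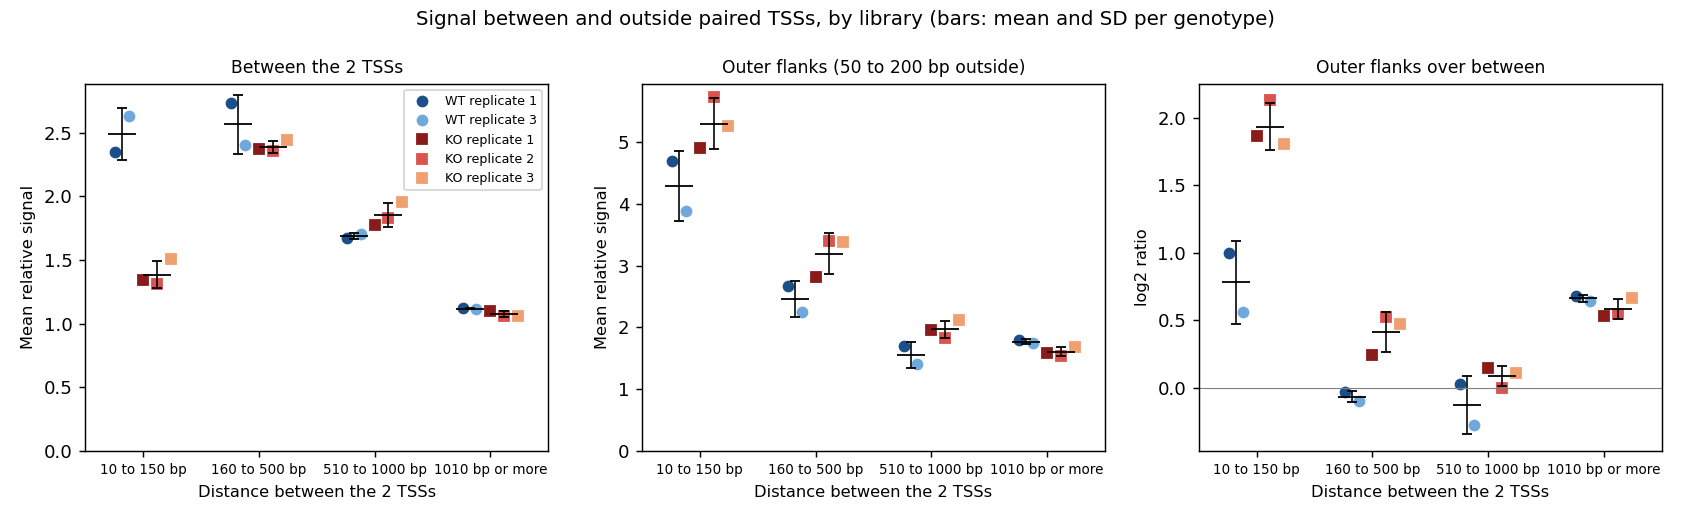
Mean relative signal between the 2 TSSs (left), at the outer flanks (middle) and the log2 ratio of outer flanks to the stretch between (right) for the 4 distance classes; points are libraries (circles WT, squares KO), and bars the mean and SD of each genotype. At 10 to 150 bp the 3 KO libraries (1.31 to 1.50) lie below both WT libraries (2.34 and 2.63) between the TSSs.

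The average profiles show where the flanking signal stood. At pairs 10 to 150 bp apart the outer maximum lay 135 or 145 bp left of the left TSS in the 5 libraries. On the other side it lay 125 or 135 bp right of the right TSS. At pairs 160 to 500 bp apart the right outer maximum lay at 105 bp in all 5 libraries, and the left one at -105 to -165 bp. At 510 to 1000 bp the left maximum within 250 bp was at -5 bp in both WT libraries, where the bin beside the TSS was the highest, and at -115 to -175 bp in KO. This position rests on an average of 85 pairs with several maxima of like height. At more than 1000 bp the right outer maximum was again narrow in position, at 115 or 125 bp.

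**Figure D3:**
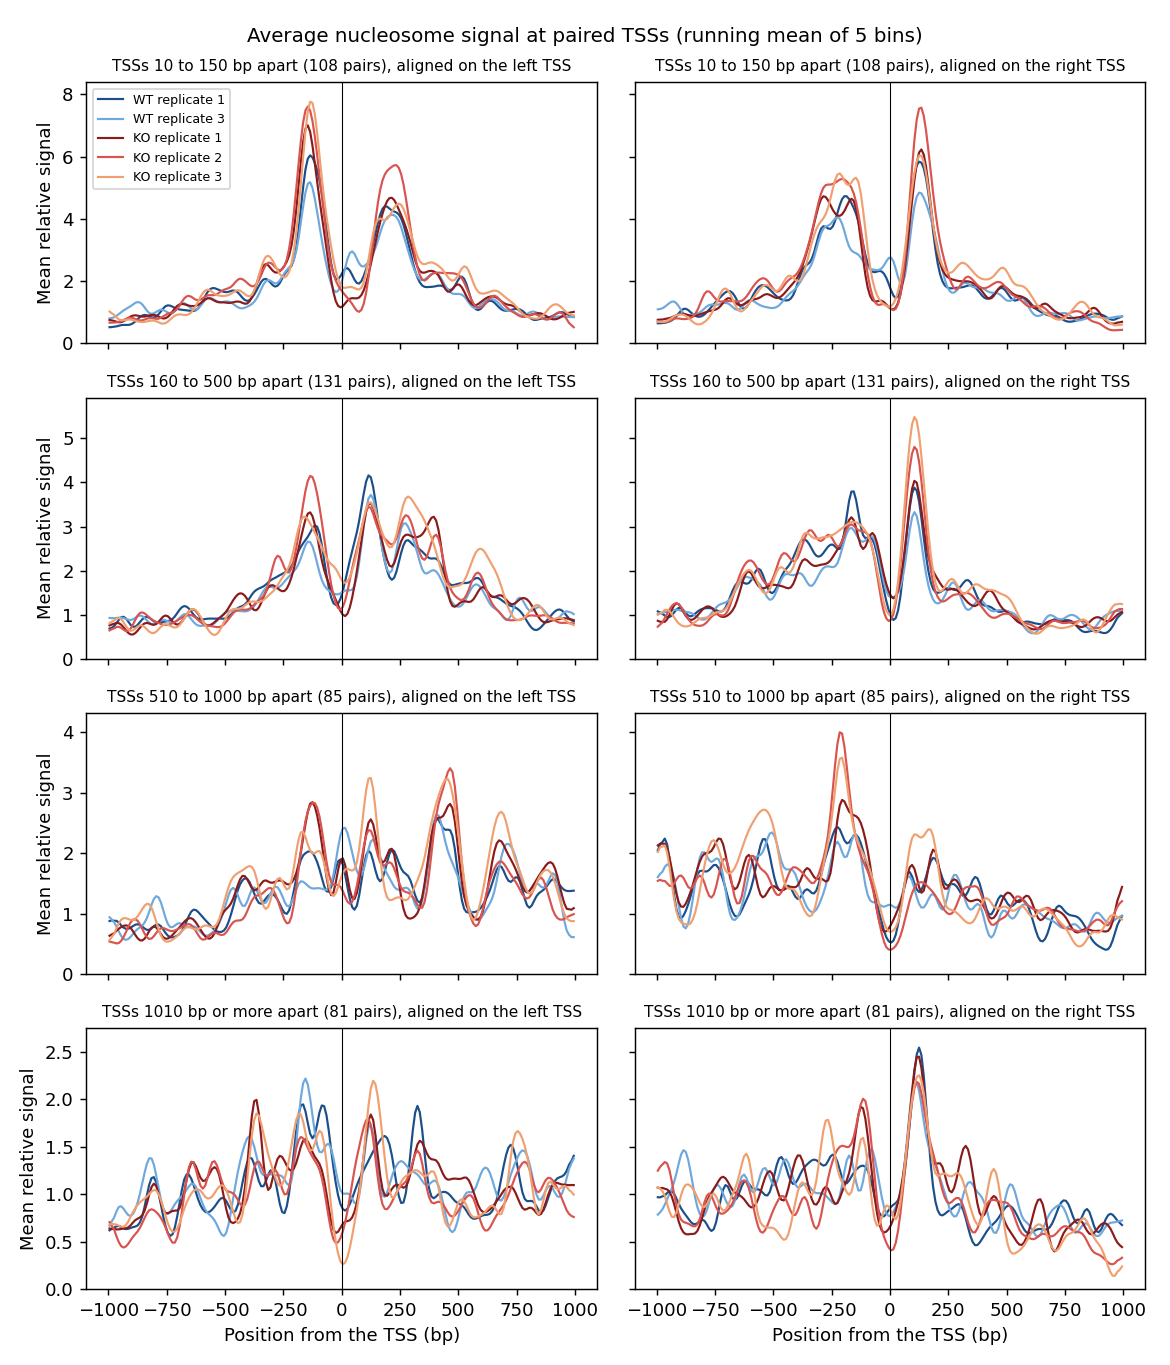
Mean relative signal (vertical axis, smoothed over 5 bins) against position from the TSS in bp (horizontal axis), aligned on the left TSS (left column) and the right TSS (right column) for the 4 distance classes; lines are the 5 libraries. In the first row the space beside the TSS on the side of its partner is lower in the KO libraries, and the flank beyond the partner is broader than the near one.

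The position of the outer maximum was also taken in each pair. The strongest bin within 400 bp outside each TSS was taken where it reached a relative signal of 1, which both sides did in 91 to 101 of the 108 closest pairs, depending on the library. The median distance from the left TSS to its outer maximum was 145 bp in both WT libraries and 155, 145 and 135 bp in KO replicates 1, 2 and 3. From the right TSS it was 150 and 135 bp in WT and 155, 145 and 145 bp in KO. The 2 outer maxima of the closest pairs stood a median of 400 and 390 bp apart in WT and 420, 370 and 380 bp in KO. The genotypes overlapped in all of these distances, which are bounded by the bin of 10 bp.

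The space between 2 TSSs held a signal maximum in a minority of the closest pairs and in most of the others. A longer stretch offers more bins where a maximum can fall, so this contrast between classes is in part set by length. A maximum was counted where a bin was the highest within 70 bp and had a relative signal of at least 1. At pairs 10 to 150 bp apart, 37 and 39 of 108 pairs had 1 maximum between the TSSs in WT replicates 1 and 3, against 29, 23 and 22 in KO replicates 1, 2 and 3, and no pair had 2. Each KO library was lower than both WT libraries (35.2% ± 1.31, SD, n = 2, against 22.8% ± 3.51, SD, n = 3; exact permutation p = 0.1, adjusted p = 0.21). At pairs 160 to 500 bp apart 111 and 110 of 131 pairs had at least 1 maximum in WT and 99, 93 and 81 in KO (exact permutation p = 0.2; adjusted p = 0.28). The mean number of maxima between the TSSs was then 1.24 and 1.27 in WT and 1.12, 1.01 and 0.832 in KO.

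More maxima lay between TSSs farther apart in both genotypes. At pairs 510 to 1000 bp apart there were 2.60 and 2.82 maxima per pair in WT and 2.40, 2.22 and 1.87 in KO, and at more than 1000 bp 4.80 and 4.86 against 4.28, 3.77 and 3.05. Per 1000 bp between the TSSs, WT had 4.18, 4.02, 3.70 and 3.44 maxima from the closest to the farthest class and KO 2.71, 3.15, 2.95 and 2.63. Within the 4 classes the order of the KO libraries followed their share of bins at 0, with KO replicate 3 lowest; the part of this share in the counts was not tested.

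A trough at both TSSs was more frequent in close pairs, which the measure favours. The closest TSSs share bins of the trough and of the flanks, so agreement between them is in part built in. A TSS was given a trough where its flanks averaged a relative signal of at least 1 and the signal within 50 bp was below 0.5 of the flanks. Both TSSs had one in 34 and 25 of 108 pairs at 10 to 150 bp in WT replicates 1 and 3 and in 46, 47 and 44 in KO replicates 1, 2 and 3 (exact permutation p = 0.1; adjusted p = 0.21). At 160 to 500 bp it was 24 and 19 of 131 in WT and 30, 29 and 33 in KO (exact permutation p = 0.1; adjusted p = 0.21). At 510 to 1000 bp it was 9 and 10 of 85 in WT and 16, 14 and 13 in KO, again without overlap (exact permutation p = 0.1; adjusted p = 0.21). At more than 1000 bp the counts were 8 and 8 of 81 in WT and 8, 7 and 11 in KO (exact permutation p = 1; adjusted p = 1).

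In pairs farther apart than 150 bp, a single TSS more often had the trough than both in all 5 libraries. At 10 to 150 bp the same order held in WT, with 38 and 43 of 108 pairs against 34 and 25. It was reversed in KO, with 33, 37 and 39 against 46, 47 and 44. At 160 to 500 bp a single TSS had the trough in 65 and 58 of 131 pairs in WT and in 55, 43 and 48 in KO. At more than 1000 bp it was so in 33 and 30 of 81 pairs in WT and in 30, 32 and 29 in KO. Which TSS it was varied between libraries: the same single TSS had the trough in all 5 libraries in 2 pairs at 10 to 150 bp, 9 at 160 to 500 bp, 5 at 510 to 1000 bp and 5 at more than 1000 bp. A trough at both TSSs in all 5 libraries was found in 13, 4, 2 and 0 pairs of these classes. Of single member windows of the closest class, 49.1% and 43.1% had a trough in WT and 57.9%, 60.6% and 58.8% in KO. The range over the 5 libraries was 36.6% to 43.9% at 160 to 500 bp, 30% to 35.3% at 510 to 1000 bp and 28.4% to 31.5% at more than 1000 bp. Of all other windows 25.5% to 27.6% had one. The call needs signal at the flanks, and of the other windows in the top 25% by signal, 60.4% and 56.3% had a trough in WT and 65.8%, 70.1% and 65.8% in KO. In each library this was above the share in the closest member class, of whose windows 75.9% were in the top 25%.

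**Figure D4:**
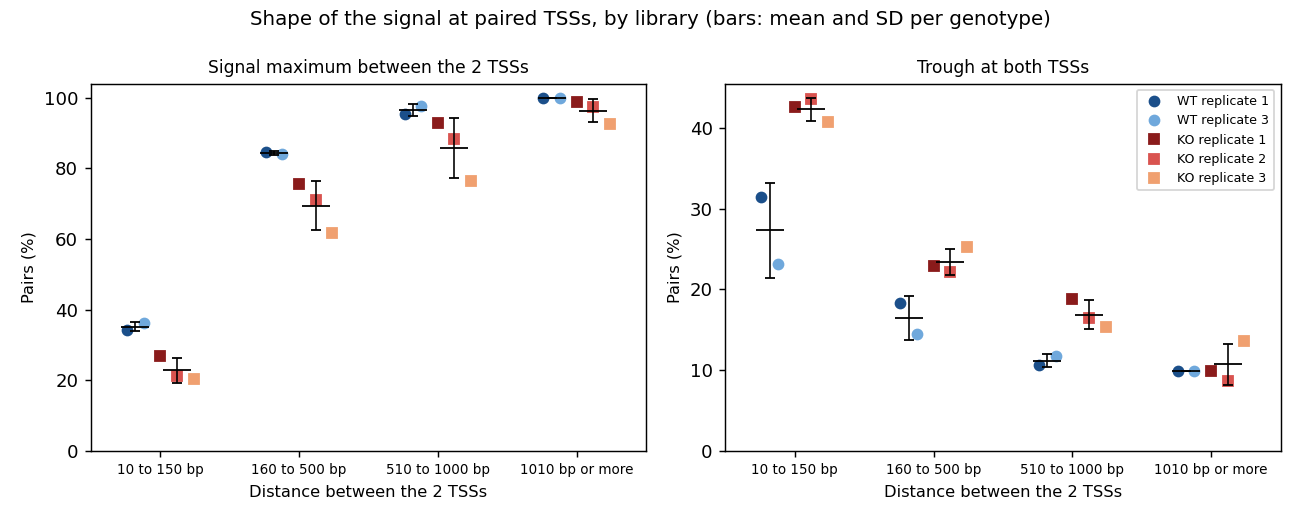
Percentage of pairs with at least 1 signal maximum between the 2 TSSs (left) and with a trough at both TSSs (right) for the 4 distance classes; points are libraries (circles WT, squares KO), and bars the mean and SD of each genotype. Maxima become more frequent and troughs at both TSSs less frequent with distance. Both trends are in part set by the measures, since longer stretches hold more bins and the closest TSSs share bins. The genotypes do not overlap for maxima in any class, nor for troughs at both TSSs in the 3 classes up to 1000 bp.

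The 2 outer sides of a pair had related levels of signal. Over the 379 loci of 2 windows, the signal in the 1000 bp left of the left TSS and that in the 1000 bp right of the right TSS, which share no bin, had a Spearman's rho of 0.579 (Pearson's r 0.587 on log2 values). These are correlations across loci measured in the same 5 libraries, given as a description. From the closest to the farthest class rho was 0.544, 0.671, 0.410 and 0.330 (108, 125, 76 and 70 loci). For single other windows, the 1000 bp on the left and right of the TSS gave 0.721.

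Over whole loci, the genotypes differed little in signal. The mean relative signal of the 389 loci was 1.48 and 1.43 in WT replicates 1 and 3 and 1.51, 1.54 and 1.60 in KO replicates 1, 2 and 3. The difference was 0.0895 (exact permutation p = 0.2; adjusted p = 0.28), although each KO library lay above both WT libraries on this scale. Without scaling it turned to -0.0253, with KO replicate 3 lowest at 0.517 and the other 4 libraries at 0.789 to 0.924. The rule asks for signal in the WT libraries. With pairs found instead in KO replicates 1 and 2 by the same rule (392 pairs, 371 of them shared with the 405), the mean was 1.53 and 1.46 in WT and 1.56, 1.60 and 1.66 in KO, a difference of 0.116 (exact permutation p = 0.1).

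A fit over all 36447 windows with limma (log2 of the relative signal plus a pseudocount of 0.1, KO against WT, Benjamini-Hochberg adjustment over all windows) called no member window at an adjusted p of 0.05 for the whole window, where 0% of all windows were called. At an unadjusted p under 0.05 there were 92 of 789 member windows, 11.7% against 11.2% of all windows. Of these, 51 were higher in KO (6.46%, background 4.54%) and 41 lower (5.2%, background 6.68%). This split depended on scaling: without scaling 1 was higher and 30 lower, and with quantile normalization 37 were higher and 49 lower. The libraries of the 2 genotypes did not overlap in 252 member windows (31.9%, background 30.1%), of which 116 were higher in KO (14.7%, background 9.69%) and 136 lower (17.2%, background 20.4%). Members were thus near the background in all, and they include partner windows that share most of their bins. The median log2 difference was -0.04 over the members and -0.21 over all windows; it was -0.19 and -0.29 without scaling and -0.07 and -0.01 with quantile normalization, so that members lay above the median of all windows on the first 2 scales and below it on the last. By distance class it was 0.10, -0.10, -0.12 and -0.16 from the closest pairs to the farthest.

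For the contrast of flanks and trough at each TSS, limma likewise called 0 of 789 member windows (0% of all windows). At an unadjusted p under 0.05 there were 70 member windows (8.87%, against 8.08% of all windows), of which 50 had a higher contrast in KO (background 4.92%) and 20 a lower one (background 3.16%). The median log2 difference of the contrast was 0.26 over the members and 0.09 over all windows, and with quantile normalization it turned to -0.04 and -0.02. Among members, 123 windows had all KO libraries above the WT libraries (15.6%, background 11.7%) and 58 below (7.35%, background 9.53%).

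After removal of the lowest 25% of windows by mean before the limma fit, 3 member windows of 712 passed an adjusted p of 0.05 for the whole window (background 0.655%). They were both windows of 1 pair, rows 1695 and 1696, and row 15214. Both of these loci are among those described next, which are the 3 with the largest difference in each direction among loci with a relative signal above 1 whose genotypes did not overlap. They were picked by size from the same data, so the values are a description; the adjusted p-values given for 2 of the windows are those of the limma fits, with and without the windows of lowest mean.

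The largest difference towards lower KO signal was at rows 1695 and 1696, with TSSs 320 bp apart. Over the 2 windows the relative signal was 1.44 and 2.30 in WT replicates 1 and 3 and 0.643, 0.420 and 0.0857 in KO replicates 1, 2 and 3. Between the TSSs it was 3.15 and 6.17 in WT and 1.19, 1.25 and 0.0846 in KO, so each KO library was lower than both WT libraries there as well. The limma log2 difference of the window in row 1695 was -2.25 (SE 0.51), with an adjusted p of 0.201 over all windows and 0.00226 without the 25% of lowest mean. The partner window shares 168 of its 200 bins and is not a second observation.

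The other 2 loci with lower KO signal differed less. At rows 2002 and 33124, with TSSs 400 bp apart, the signal over both windows was 1.86 and 1.99 in WT and 1.48, 0.776 and 1.29 in KO, and its left outer flank held 10.2 and 13.1 in WT and 7.83, 2.89 and 5.46 in KO. At rows 34099 and 329, with TSSs only 10 bp apart, it was 1.52 and 2.00 in WT and 1.51, 0.780 and 0.923 in KO. The 2 TSSs of this last pair lay in a trough in all libraries, the single bin between them holding 0.0551 and 0 in WT and 0.0535, 0 and 0 in KO. Over both windows KO replicate 1 lay just below WT replicate 1.

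The largest difference towards higher KO signal was at rows 15214 and 31431, with TSSs 340 bp apart. The relative signal over both windows was 1.46 and 1.45 in WT replicates 1 and 3 and 3.36, 4.39 and 2.77 in KO replicates 1, 2 and 3. The left outer flank did not overlap either, with 2.65 and 4.26 in WT and 10.7, 21.4 and 8.57 in KO, while the right outer flank overlapped (0.561 and 0.481 in WT, 1.51, 0.0793 and 0.193 in KO). Within 50 bp of the left TSS there was almost no signal except in WT replicate 3, at 1.01. The limma log2 difference of the window in row 15214 was 1.19 (SE 0.29; adjusted p = 0.201 over all windows, 0.0373 without the 25% of lowest mean).

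At rows 4465 and 21578, with TSSs 80 bp apart, the relative signal over both windows was 1.05 and 1.19 in WT and 2.19, 2.47 and 2.17 in KO. Its outer flanks held 2.64 and 4.65 in WT and 6.69, 10.2 and 9.09 in KO, whereas the stretch between the TSSs held 0.00879 and 3.48 in WT and 0, 0.0411 and 0.295 in KO. WT replicate 3 was the highest of the 5 libraries between these TSSs. At rows 3544 and 31743, with TSSs 1020 bp apart, the signal over both windows was 1.80 and 1.37 in WT and 2.90, 3.40 and 2.97 in KO. The stretch between its TSSs did not overlap either, with 2.94 and 2.61 in WT and 5.25, 6.81 and 6.58 in KO.

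**Figure D5:**
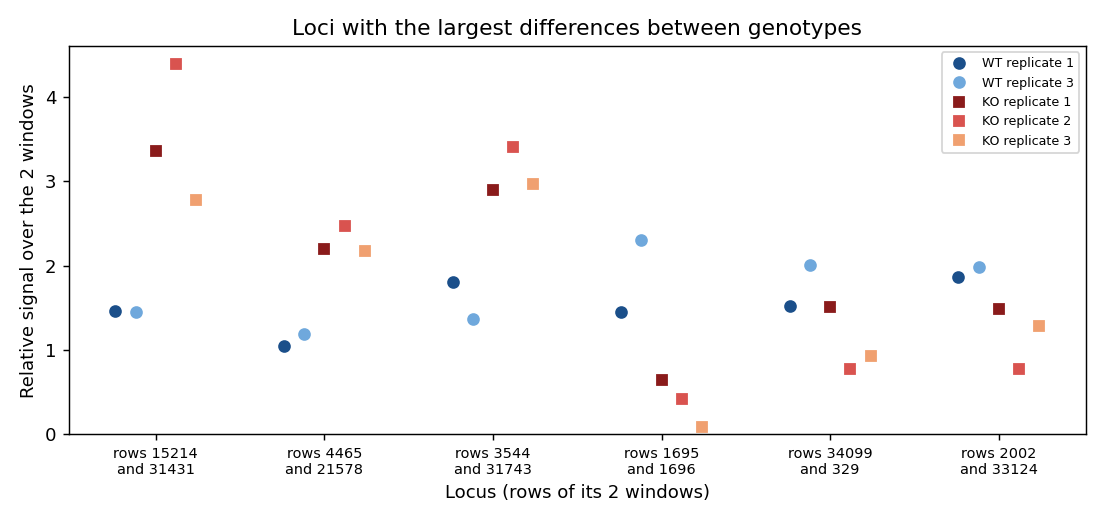
Relative signal over both windows (vertical axis) at the 3 loci with the largest difference towards higher and the 3 towards lower KO signal among those whose genotypes do not overlap (horizontal axis, named by row numbers); points are libraries (circles WT, squares KO). At rows 1695 and 1696 the KO libraries reach 0.0857 to 0.643 against 1.44 and 2.30 in WT, and at rows 34099 and 329 KO replicate 1 nearly meets WT replicate 1.

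The strongest pair of each distance class gives an example of its form. At 10 to 150 bp it was rows 24761 and 3269, with TSSs 30 bp apart, where the stretch between held 0 and 3.99 in WT replicates 1 and 3 and 0, 0.0340 and 0.173 in KO replicates 1, 2 and 3. Its outer flanks held 8.12 and 5.14 in WT and 12.2, 9.51 and 16.1 in KO. The highest bin stood 505 to 525 bp right of the left TSS in all 5 libraries, outside the region measured as flank. Here too WT replicate 3 was the highest of the 5 libraries between the TSSs.

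At 160 to 500 bp the strongest pair was rows 9310 and 3479, with TSSs 290 bp apart, and its stretch between was filled, with 14.2 and 14.1 in WT and 11.5, 16.1 and 14.3 in KO. The 2 TSSs differed in all libraries, since within 50 bp of the left TSS the signal was 11.9 to 28.7 and within 50 bp of the right TSS 1.34 to 4.23. At 510 to 1000 bp it was rows 4169 and 30628, 800 bp apart, with 4.98 and 6.47 over both windows in WT and 9.44, 8.51 and 9.19 in KO, while its stretch between overlapped (5.32 and 7.22 in WT, 6.50, 8.75 and 9.60 in KO). At more than 1000 bp it was rows 15923 and 20556, 1630 bp apart. That pair had 3.18 and 3.05 over both windows in WT and 2.54, 1.94 and 3.34 in KO, which overlapped, and its left outer flank (4.36 to 20.1) was higher than its right one (0 to 1.33) in each of the 5 libraries.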

How the data were processed

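The files hold 1 matrix of nucleosome signal per library in bins of 10 bp around TSSs; the signal was deposited by the authors with no header, and no source used here states its settings, scaling between libraries or list of TSSs. Bowtie2, MACS2 and the genome build mm9 are named per the submitters' processing notes. No read counts are given, so the depth is unknown. Members, distance classes and tests were chosen with earlier results of these data known. Each library was divided by its mean over the 36447 distinct windows. Pair finding and limma were checked on simulated data. Windows were fitted with limma 3.58.1 (R 4.3.3; lmFit, eBayes with trend; two-sided), and other values with Python 3.11.15, numpy 2.4.6 and pandas 2.3.3. Single values were tested between genotypes by exact two-sided permutation; p-values were adjusted over 21 comparisons. Pairs were named by the highest signal per class and the 3 largest differences per direction (relative signal above 1, genotypes not overlapping), plus the largest linked group. Counts of maxima, troughs and comparisons with the top 25% were added after the data were seen. Settings tried were the pseudocount, scaling, filter, flanks, rule, replicate block and left-out libraries.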

Additional observations from a re-analysis of the deposited data

How the results depend on the processing

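Of 87 alternative values, 83 were entered as unchanged. The 87 include counts of pairs, which have no direction or threshold, and counts of called windows, whose main value was 0. None of the single-value tests could pass 0.05, so only their direction could change. The log2 flank to between difference at 160 to 500 bp (0.48) became -0.025 as a median over pairs, and that at more than 1000 bp (-0.0806) became 0.0497 without the 5 strongest loci, an alternative chosen after seeing the data. The difference over whole loci (0.0895) became -0.0253 without scaling. The count of member windows for the whole window (0) became 3 without the 25% of windows of lowest mean; the cause was not tested. Leaving out 1 library gave 0.936 to 1.38 for the log2 difference at 10 to 150 bp, 0.422 to 0.564 at 160 to 500 bp, 0.0591 to 0.366 at 510 to 1000 bp and -0.124 to -0.0564 at more than 1000 bp. With the replicate block, limma called 0 member windows for the whole window and 0 for the contrast. Deviations of same-numbered libraries correlated at -0.06 (replicate 1) and -0.04 (replicate 3), so the numbers gave no sign of pairing. The rule gave 320 to 405 pairs under its alternatives. The depth is unknown, and 44.5% to 65.4% of bins were at 0.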
